A study of Mus musculus with 6 samples.

Results

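The comparison of BRD9 knockdown with a scrambled shRNA was taken as a whole, with every row of the authors' deposited table for it: 27179 genes, of the 54358 rows in the 2 comparison tables of the series. An adjusted p was given for 17198 of these genes, 6427 had a mean of 0, and 3554 had a mean above 0 but no adjusted p. The cells were C2C12, an immortalised mouse myoblast line that stops dividing and fuses into multinucleated myotubes when serum is lowered. RNA was sequenced 48 h after the change to medium with horse serum and insulin. All groups carried a stably transfected shRNA construct: a non-targeting scrambled sequence (2 libraries), a construct against BRD9 (2 libraries) or a construct against BAF250A (2 libraries, used here to recover reads and as a second comparison with the same controls). The series design text describes the 2 libraries of a group as biological duplicates. The sources used here do not say whether the cultures of a pair were kept apart from transfection on, so the tests measure the spread between these libraries, which may be partly technical. In bulk RNA, a lower share of cells of one type and less RNA per cell cannot be told apart.

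SWI/SNF enzymes are multi-subunit machines that use ATP to move or eject nucleosomes, and they occur in several forms that share a catalytic core. BRD9, a bromodomain protein, belongs to the ncBAF form, and BAF250A (the Arid1a product) is found in the BAF form. Muscle differentiation runs from Pax7-positive progenitors, whose quiescence depends on Notch signalling, through Myod1 and Myf5 in committed myoblasts to Myog, cell fusion and the sarcomeric genes of the myotube. The title of the series asks how far the requirements for these forms differ in that course.

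A gene was called when its adjusted p was below 0.05 by the authors' DESeq2 Wald test, and fold changes are log2 values of BRD9 knockdown over scrambled shRNA with the deposited standard error (SE). Among the 17198 genes with an adjusted p, 2483 were called (14.4%), 879 of them higher (5.11%) and 1604 lower (9.33%) in the knockdown. The median log2 fold change was -0.15 over all genes tested and 0.02 over protein-coding genes with little shared sequence, meaning that at most 10% of a gene's 31-base words occur in another gene. The smallest log2 fold change called was 1.29 in size, so changes smaller than that were not detectable at this depth and spread. Whole reads per library were recovered for all 7556 genes with a mean above 0 and below 30, and jointly with the BAF250A table for a further 195 of 218 members with means up to 1000. They give size factors, which scale with depth, of 1.48 and 1.07 for the scrambled libraries and 0.841 and 0.782 for the BRD9 libraries. Which of these is replicate A or B is unknown, so the libraries of a group are called deeper and shallower. Total counts per library were not analysed here.

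The scrambled libraries stood apart from the knockdown libraries across genes with few reads. Among genes with a mean below 30, 56.0% and 55.6% of the non-zero read numbers were even in the scrambled libraries, against 78.6% and 80.1% in the BRD9 libraries and 76.2% and 80.4% in the BAF250A libraries. Reads were found only in scrambled libraries for 3758 of these genes, only in BRD9 libraries for 279 and in both for 3519. The scrambled libraries also had the larger size factors, and a deeper library holds reads of more genes with low counts. Since these differences follow the groups, they and the knockdown cannot be told apart. Their part in the results that follow was not tested.

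Brd9 (gene 105246, protein-coding, chr13:73937801-73960895 in mm10) had normalized counts of 852 and 1055 in the deeper and shallower scrambled libraries and 197 and 403 in the BRD9 libraries. Both knockdown libraries were below both controls, and they differed from each other about as much as the groups' nearest values did. In the authors' deposited table Brd9 fell by 1.60 (SE 0.54, adjusted p = 0.0252, Wald test), to 33.0% of the control level. The call was lost (adjusted p = 0.0507) when the Wald test was repeated on fold changes recentred on the median of all genes. It was also lost (adjusted p = 0.599) when the Wald scores were centred and divided by their robust SD of 1.58, a scaling that allows for a wider spread than the test assumes. Brd9 sets the sign of the table, so it gives no independent check of direction. Among 27 SWI/SNF subunit genes tested, 2 others were called. Smarca2, which encodes one of the alternative catalytic ATPases, had normalized counts of 481 and 212 in the scrambled and 1104 and 947 in the BRD9 libraries, and rose by 1.49 (SE 0.55, adjusted p = 0.0459) per the authors' deposited table. Smarce1, a subunit of the BAF and PBAF forms, rose by 1.59 (SE 0.48, adjusted p = 0.00974) per the authors' deposited table. Arid1a, at -0.17 (SE 0.52, adjusted p = 0.892) per the authors' deposited table, and the ncBAF gene Bicra, at -0.30 (SE 0.49, adjusted p = 0.772), were not called. Of the 3 ncBAF genes tested Brd9 alone was called, and the highest stood at 0.36.

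Transcripts of terminal differentiation genes were abundant in both groups. Of 6 myotube markers (Myh3, Acta1, Ckm, Tnnt3, Mylpf and Mymk) 0 were called, with log2 fold changes between -0.58 and 0.54 and a median of -0.12, against calls for 14.4% of all genes. Myh3, the embryonic myosin heavy chain (gene 17883, chr11:67078273-67102291 in mm10), had a mean normalized count of 78314 over the 4 libraries and a log2 fold change of 0.41 (SE 0.51, adjusted p = 0.692) per the authors' deposited table. Mymk, the membrane protein that starts myoblast fusion (gene 66139, chr2:27061636-27072161), had a mean of 56255 and a log2 fold change of -0.04 (SE 0.55, adjusted p = 0.98) per the authors' deposited table. Its 95% interval of -1.10 to 1.03 holds changes of about 2-fold either way, which these libraries could not have separated from no change.

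The remaining markers and the myogenin gene gave the same kind of result. Acta1, skeletal alpha-actin, stood at -0.29 (SE 0.55) and Ckm, muscle creatine kinase, at -0.58 (SE 0.58) per the authors' deposited table, with adjusted p of 0.809 and 0.605. Tnnt3, fast troponin T, stood at 0.54 (SE 0.58) and Mylpf, the fast regulatory light chain, at -0.20 (SE 0.58) per the authors' deposited table, with adjusted p of 0.629 and 0.881. Myog, the transcription factor that commits myoblasts to fusion, had implied means of 30929 in scrambled and 55017 in BRD9 libraries, computed from the deposited mean and fold change. Its log2 fold change of 0.83 (SE 0.57, adjusted p = 0.394) per the authors' deposited table was not called. Mymx, the small partner of Mymk in fusion, stood at 1.48 (SE 0.59) per the authors' deposited table with an adjusted p of 0.0729, and it was called when fold changes were recentred on the median of all genes.

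**Figure D1:**
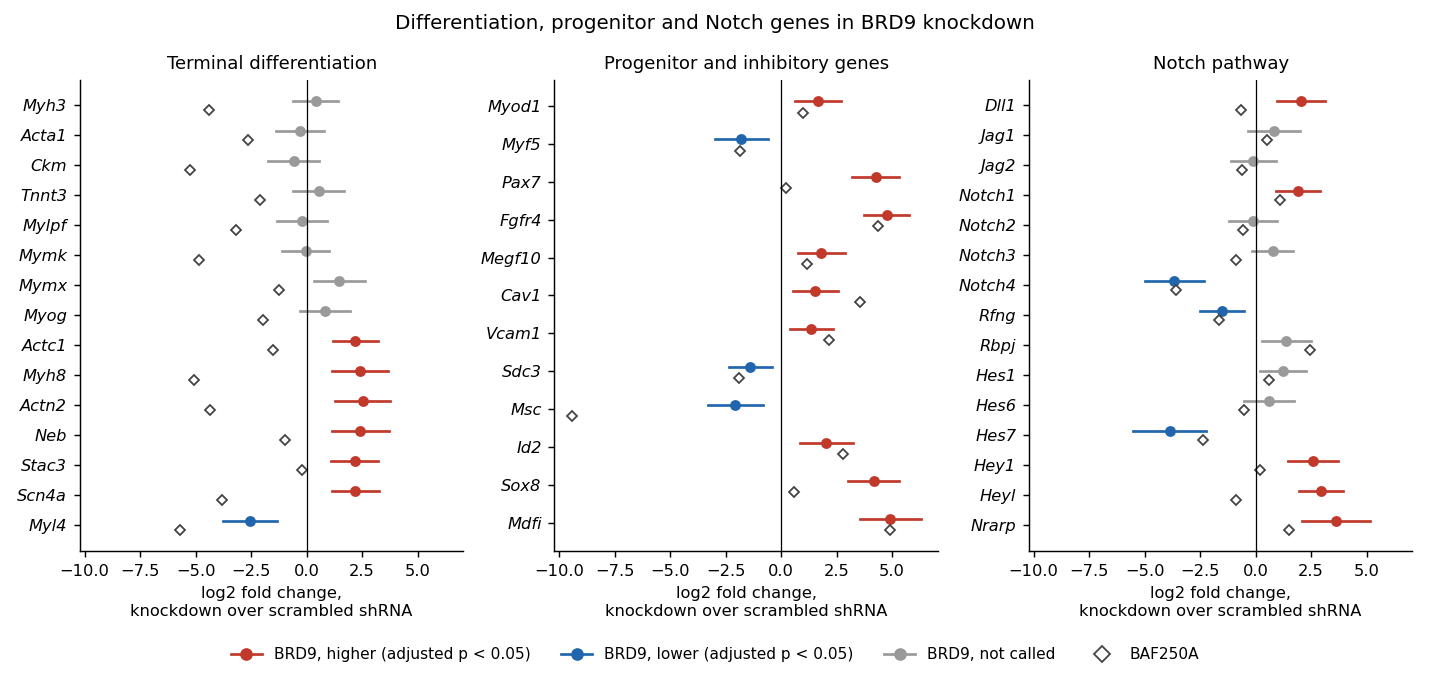
Log2 fold changes of knockdown over scrambled shRNA for terminal differentiation, progenitor and Notch genes. Filled circles are BRD9 knockdown with 95% intervals (1.96 SE either side), coloured by call, and open diamonds are BAF250A knockdown without its error. The myotube markers from Myh3 to Mymk lie between -0.58 and 0.54 with BRD9 knockdown, while Pax7 (4.26) and Heyl (2.95) lie far to the right.

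Among all muscle genes a small number of structural genes stood higher. Of 136 tested members of 8 muscle lists, 18 rose and 6 fell, 17.6% called against 14.4% of all genes, with a median log2 fold change of 0.40 against -0.15. Restricting the count to the 117 with little shared sequence, with the deposited adjusted p kept, left 13 higher and 5 lower, and the median stayed at 0.40. Such counts in the other classes and lists also keep the deposited adjusted p. With the Wald scores centred and scaled by their robust SD, 1 member was higher (Vgll2) and 0 lower, so the calls below other than Vgll2 were lost under that setting.

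Vgll2 encodes a cofactor of TEAD factors that is expressed in skeletal muscle. Its normalized counts were 128 and 153 in the scrambled and 852 and 915 in the BRD9 libraries, so all libraries of one group lay above all of the other with little spread within groups. It rose by 2.56 (SE 0.50, adjusted p = 7.11e-06) per the authors' deposited table. Of the myogenic bHLH factors, Myod1 (gene 17927, chr7:46376474-46379092) rose by 1.67 (SE 0.53, adjusted p = 0.0142) per the authors' deposited table, its implied group means being 4608 (scrambled) and 14666. (BRD9) Myf5 went the other way and fell by 1.78 (SE 0.62, adjusted p = 0.0304) per the authors' deposited table. That call was also lost after recentring, and when the adjustment was repeated over protein-coding genes with little shared sequence alone.

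In the thick filament 2 of 18 genes rose and 2 fell, and in the thin filament 3 of 16 rose and 0 fell. These are 22.2% and 18.8% called, against 14.4% of all genes. Myh8, the perinatal myosin heavy chain, rose by 2.40 (SE 0.64, adjusted p = 0.00229) and Myh1, a fast adult chain, by 1.71 (SE 0.50, adjusted p = 0.00644) per the authors' deposited table. These genes share 18.6% and 42.9% of their words with other genes, so reads may be split among the heavy chains. Myl4, the embryonic and atrial light chain, fell by 2.53 (SE 0.62, adjusted p = 0.000699) per the authors' deposited table. Myh6, the alpha cardiac heavy chain, had normalized counts of 582 and 757 in the scrambled and 146 and 295 in the BRD9 libraries, which do not overlap. It fell by 1.53 (SE 0.55, adjusted p = 0.0391) per the authors' deposited table, a call lost after recentring (adjusted p = 0.0738, Wald test), and shares 29.2% of its words with other genes. Actc1, cardiac alpha-actin, which is also the first sarcomeric actin of young myotubes, rose by 2.20 (SE 0.52, adjusted p = 0.000327) per the authors' deposited table, its implied group means being 24807 (scrambled) and 114108. (BRD9) Neb, the nebulin ruler of the thin filament, rose by 2.43 (SE 0.65) and Tmod1, a capping protein of its pointed end, by 1.66 (SE 0.49) per the authors' deposited table, with adjusted p of 0.00214 and 0.00788.

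At the Z-disc 1 of 16 genes rose and 1 fell, 12.5% called against 14.4% of all genes. Actn2, the Z-disc alpha-actinin, rose by 2.53 (SE 0.63, adjusted p = 0.000825) per the authors' deposited table. Myoz1, a calcineurin-binding Z-disc protein, was low in all libraries, with normalized counts of 94.8 and 195 in the scrambled and 35.7 and 26.8 in the BRD9 libraries. In the authors' deposited table it fell by 2.06 (SE 0.66, adjusted p = 0.015).

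Genes of the membrane and its coupling to contraction gave 6 increases and 0 decreases over the fusion list (3 of 19 tested), the excitation-contraction list (2 of 20) and the neuromuscular junction list (1 of 11). These are 15.8%, 10.0% and 9.09% called, near or under the 14.4% of all genes. Tmem182, a muscle membrane protein, had normalized counts of 317 and 469 in the scrambled and 2088 and 909 in the BRD9 libraries, and rose by 1.84 (SE 0.56, adjusted p = 0.00892) per the authors' deposited table. Scn4a, the sodium channel of skeletal muscle, had 160 and 256 in the scrambled and 1297 and 754 in the BRD9 libraries, and rose by 2.20 (SE 0.54, adjusted p = 0.00062) per the authors' deposited table. For both genes the groups did not overlap, and the deeper BRD9 library was the higher of the pair. Dysf, a membrane repair protein, rose by 1.78 (SE 0.52), and Jam3, a junctional adhesion molecule, by 1.38 (SE 0.48) per the authors' deposited table. Stac3, an adaptor of the calcium channel in the triad, rose by 2.17 (SE 0.54), and Dok7, which activates the receptor kinase of the neuromuscular junction, by 1.84 (SE 0.56) per the authors' deposited table. The adjusted p of these 4 genes were 0.00632, 0.0316, 0.000794 and 0.0099.

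Of 16 muscle metabolism genes 4 rose and 2 fell (37.5% called, against 14.4% of all genes), and several of them had few reads. Slc2a4, the insulin-responsive glucose transporter, had normalized counts of 6.77 and 40.2 in the scrambled and 339 and 107 in the BRD9 libraries, and rose by 2.97 (SE 0.76, adjusted p = 0.0013) per the authors' deposited table. Ckmt2, mitochondrial creatine kinase, was called at 3.18 (SE 1.09, adjusted p = 0.0284) per the authors' deposited table although its BRD9 libraries held 72.5 and 2.56 against 3.38 and 0.936 in the scrambled libraries. The groups overlapped for Ckmt2, and 1 library carried the difference. Ppargc1a, a coactivator of mitochondrial biogenesis, had 527 and 194 in the scrambled and 85.6 and 12.8 in the BRD9 libraries, and fell by 2.63 (SE 0.74, adjusted p = 0.00391) per the authors' deposited table. Cox8b, a muscle subunit of cytochrome oxidase, fell by 2.93 (SE 0.67, adjusted p = 0.000206) per the authors' deposited table.

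Cell cycle exit precedes fusion, and of 10 tested genes of that exit 1 was called. Cdkn1c, which encodes the CDK inhibitor p57 and is imprinted (gene 12577, chr7:143458339-143461059), was the largest increase among all called genes with a mean of 100 or more. It rose by 9.71 (SE 0.54, adjusted p = 1.41e-69) per the authors' deposited table, its implied group means being 13.9 (scrambled) and 11641 (BRD9), and 27.2% of its words occur in another gene. Cdkn1a, the p21 inhibitor induced by Myod1, had a mean of 152744 and stood at -1.10 (SE 0.52, adjusted p = 0.167) per the authors' deposited table. In the whole cell cycle theme, 3 genes of 48 tested rose and 1 fell, 8.33% called against 14.4% of all genes. The others were Pcna, the replication clamp, at 1.76 (SE 0.53), Ccnb1, cyclin B1, at 1.42 (SE 0.51), and Cenpf, a kinetochore protein, which fell by 1.94 (SE 0.59) per the authors' deposited table. Pcna and Ccnb1 share 23.3% and 27.8% of their words with other genes.

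Several progenitor genes rose, in the same libraries in which the myotube markers were not called. Of 38 tested genes of satellite or reserve cells and of inhibitors of myogenesis, 8 rose and 2 fell. That is 26.3% called, against 14.4% of all genes, and the median log2 fold change was 0.51, against -0.15. Under the centred and scaled Wald score 4 were higher (Pax7, Fgfr4, Sox8 and Mdfi) and 0 lower. Pax7, the defining transcription factor of satellite cells (gene 18509, chr4:139737059-139833530), had normalized counts of 60.9 and 37.4 in the scrambled libraries and 920 and 1231 in the BRD9 libraries. Every BRD9 value was far above every scrambled value, and the spread within each group was under 2-fold. Pax7 rose by 4.26 (SE 0.53, adjusted p = 7.05e-14) per the authors' deposited table, a fold of 19.2.

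Fgfr4, an FGF receptor of myoblasts (gene 14186, chr13:55152818-55168759), rose by 4.76 (SE 0.51, adjusted p = 1.12e-18) per the authors' deposited table, its implied group means being 81.0 (scrambled) and 2190. (BRD9) Megf10, a receptor of satellite cells that acts with Notch, rose by 1.81 (SE 0.54), and Cav1, a caveolar protein, by 1.54 (SE 0.52) per the authors' deposited table, with adjusted p of 0.00842 and 0.0237. Vcam1, named here after its values were seen, an adhesion molecule of satellite cells, rose by 1.35 (SE 0.49, adjusted p = 0.043) per the authors' deposited table. Sdc3, a heparan sulfate proteoglycan of satellite cells, fell by 1.38 (SE 0.49, adjusted p = 0.0361) per the authors' deposited table, a call that was lost after recentring.

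The inhibitors of myogenic bHLH factors did not move one way. Mdfi, which binds and restrains Myod1 and its relatives, had normalized counts of 2.71 and 12.2 in the scrambled and 207 and 368 in the BRD9 libraries, and rose by 4.91 (SE 0.70, adjusted p = 8.32e-11) per the authors' deposited table. Id2, which sequesters the E-protein partners of Myod1, had 140 and 59 in the scrambled and 288 and 598 in the BRD9 libraries, and rose by 2.03 (SE 0.61, adjusted p = 0.00872) per the authors' deposited table. Sox8, a Sox factor of satellite cells, rose by 4.17 (SE 0.58, adjusted p = 3.69e-11) per the authors' deposited table. Msc, the bHLH repressor musculin, was lower, with 558 and 1051 in the scrambled and 78.5 and 275 in the BRD9 libraries. It fell by 2.06 (SE 0.63, adjusted p = 0.00991) per the authors' deposited table. In all 3 of 16 tested inhibitors rose and 1 fell, 25% called against 14.4% of all genes.

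Notch receptors are cleaved when a ligand on a neighbouring cell binds them, and the released fragment joins Rbpj to activate Hes and Hey repressors. Of 41 tested genes of the pathway 5 rose and 3 fell. The share called, 19.5%, is close to the 14.4% of all genes, and the median log2 fold change was 0.51, against -0.15. Among 33 with little shared sequence 3 rose and 2 fell, and under the centred and scaled Wald score 3 were higher (Hey1, Heyl and Nrarp) and 1 lower (Notch4).

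Of 5 tested ligand genes Dll1 alone was called, and rose by 2.04 (SE 0.55, adjusted p = 0.0023) per the authors' deposited table, its implied group means being 435 (scrambled) and 1783. (BRD9) Jag1 stood at 0.83 (SE 0.60, adjusted p = 0.422) per the authors' deposited table. Of the 4 receptor genes, Notch1 (gene 18128, chr2:26457902-26503822) rose by 1.92 (SE 0.51, adjusted p = 0.0021) per the authors' deposited table, its implied group means being 1382 (scrambled) and 5218. (BRD9) Notch4, the receptor known from endothelium, had normalized counts of 229 and 302 in the scrambled and 7.13 and 28.1 in the BRD9 libraries. It fell by 3.65 (SE 0.67, adjusted p = 1.23e-06) per the authors' deposited table. Notch3, with a mean of 17836, stood at 0.77 (SE 0.47, adjusted p = 0.321) per the authors' deposited table.

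Of 21 tested genes of Notch processing and modification 0 rose and 1 fell (4.76% called, against 14.4% of all genes). That gene was Rfng, a fringe glycosyltransferase that alters ligand choice, which fell by 1.51 (SE 0.50, adjusted p = 0.0211) per the authors' deposited table. In the nuclear and target list 3 of 11 rose and 1 fell, 36.4% called. Heyl, a direct target in myogenic cells (gene 56198, chr4:123233556-123249870), rose by 2.95 (SE 0.51, adjusted p = 2.13e-07) per the authors' deposited table, its implied group means being 641 (scrambled) and 4957. (BRD9)

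Hey1 (gene 15213, chr3:8663359-8667038) had normalized counts of 146 and 130 in the scrambled and 520 and 1306 in the BRD9 libraries, and rose by 2.60 (SE 0.57, adjusted p = 8.51e-05) per the authors' deposited table. Nrarp, a feedback inhibitor induced by Notch, had 5.42 and 11.2 in the scrambled and 52.3 and 212 in the BRD9 libraries, and rose by 3.63 (SE 0.78, adjusted p = 5.61e-05) per the authors' deposited table. The shallower BRD9 library was the higher one for both, and no scrambled value reached a BRD9 value. Nrarp shares 78.2% of its words with another gene, so its reads are the least certain of this group. Hes7, the oscillating repressor of the segmentation clock, had 64.3 and 88.0 in the scrambled and 4.76 and 2.56 in the BRD9 libraries, and fell by 3.86 (SE 0.84, adjusted p = 7.89e-05) per the authors' deposited table. Hes1 stood at 1.24 (SE 0.52, adjusted p = 0.0979) per the authors' deposited table and was not called. The letters TGGGAA, the core recognised by Rbpj, were found on either strand in the RefSeq window from 250 bases before to 50 after the start (GRCm38.p6) of 6 of 9 nuclear and target genes with a window, against 28.3% of 27025 genes. The 6 were Hes5, Hes7, Hey2, Maml2, Maml3 and Rbpj, and none of them was called higher. Nrarp's window had 0 matches, and Hey1, Heyl and Hes1 were not among the 9.

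**Figure D2:**
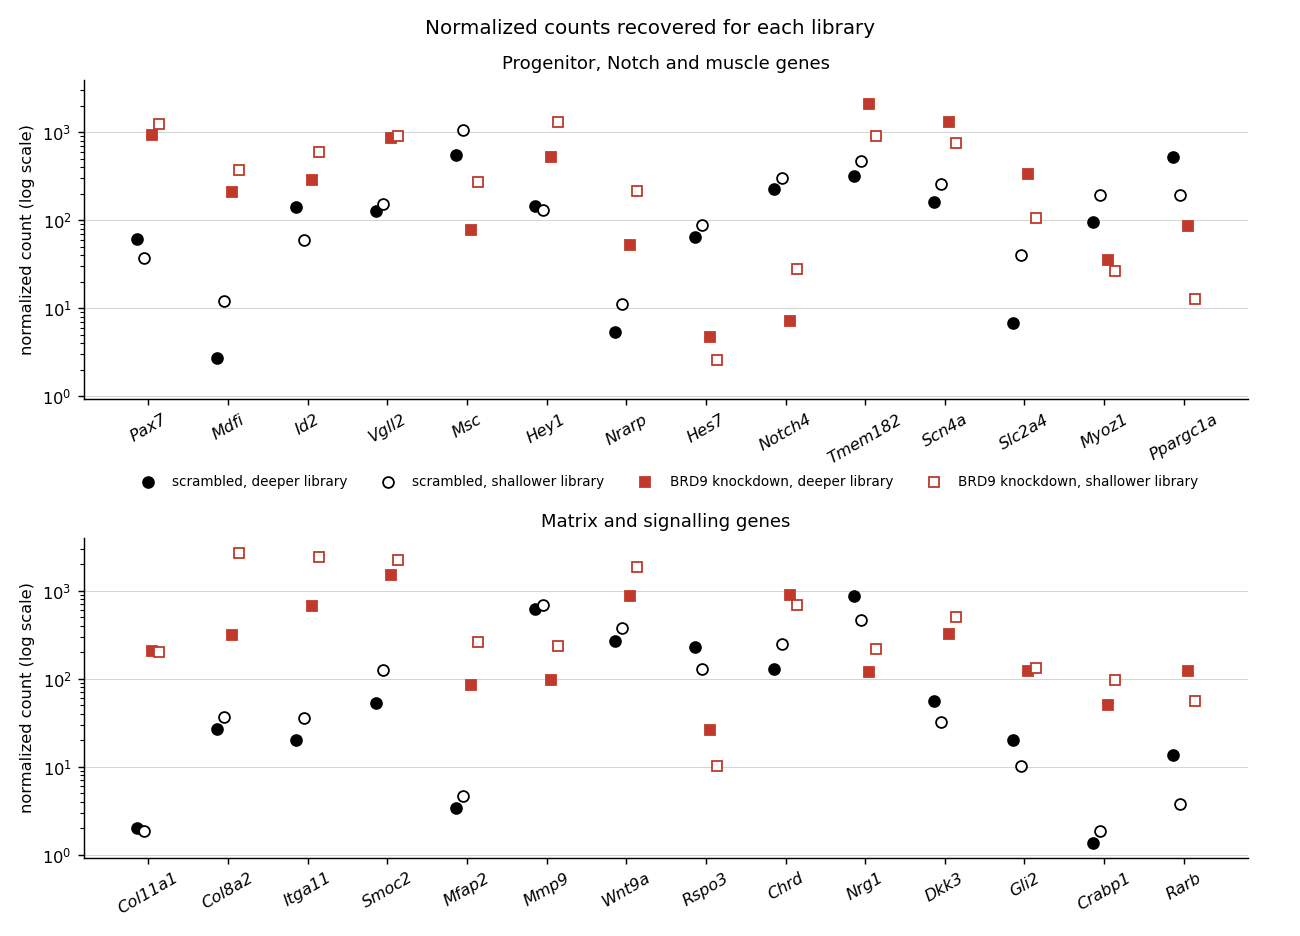
Normalized counts in each of the 4 libraries (log scale) for called genes whose whole reads were recovered; black circles are scrambled and red squares BRD9 libraries, filled for the deeper and open for the shallower library of each group. The 2 groups do not overlap for any gene drawn, and the distance between the 2 libraries of a group is widest for Col8a2 with BRD9 knockdown (314 and 2697).

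Among the 72 called members and named genes with recovered reads, all with means below 1000, the groups overlapped for 2. A call in 2 against 2 libraries favours groups that do not overlap, so this count describes the calls and supports none of them. The 2 genes were Ckmt2 above and Map2, a neuronal microtubule protein, with 305 and 71.1 in the scrambled and 1380 and 276 in the BRD9 libraries.

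The extracellular matrix is the meshwork of collagens, laminins and proteoglycans in which muscle fibres lie. Of 126 tested matrix members 34 rose (5.11% of all genes did) and 5 fell, with a median log2 fold change of 0.70; of the 117 with little shared sequence, 32 rose and 4 fell. Under the centred and scaled Wald score 17 were higher and 1 lower. Of 17 interstitial collagen genes 13 rose and 0 fell, with a median of 2.11.

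Col1a1, the main chain of type I collagen (gene 12842, chr11:94936224-94953042), rose by 2.60 (SE 0.48, adjusted p = 1.69e-06) per the authors' deposited table, its implied group means being 20081 (scrambled) and 121571. (BRD9) Col3a1 rose by 2.29 (SE 0.48) and the paired type VI chains Col6a1 and Col6a2 by 3.42 (SE 0.49) and 3.48 (SE 0.53) per the authors' deposited table, with adjusted p of 3.1e-05, 1.73e-10 and 2.56e-09. Col11a1, a fibril-nucleating chain, had normalized counts of 2.03 and 1.87 in the scrambled and 204 and 202 in the BRD9 libraries, and rose by 6.04 (SE 0.76, adjusted p = 1.05e-13) per the authors' deposited table. The libraries of each group were close to each other. Col8a2 had 27.1 and 36.5 in the scrambled and 314 and 2697 in the BRD9 libraries, so its size rests on the shallower BRD9 library, and it rose by 5.12 (SE 0.72, adjusted p = 6e-11) per the authors' deposited table.

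In the basement membrane, the sheet that wraps each fibre, 6 of 22 genes rose and 1 fell, 31.8% called against 14.4% of all genes. Lama4, a laminin alpha chain, rose by 2.32 (SE 0.48), Col4a1 by 2.20 (SE 0.50), the merosin chain Lama2 by 2.07 (SE 0.56) and nidogen-2, Nid2, by 2.03 (SE 0.49) per the authors' deposited table, with adjusted p from 3.1e-05 to 0.00242. Agrn, which clusters acetylcholine receptors at the synapse, fell by 1.89 (SE 0.48, adjusted p = 0.00125) per the authors' deposited table.

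Among glycoproteins 5 of 27 rose and 1 fell, 22.2% called against 14.4% of all genes. Smoc2, a calcium-binding matrix protein, had normalized counts of 53.5 and 126 in the scrambled and 1503 and 2228 in the BRD9 libraries, and rose by 4.18 (SE 0.56, adjusted p = 4.33e-12) per the authors' deposited table. The elastic fibre genes Mfap4, Fbln5 and Fbn1 rose by 2.76 (SE 0.64), 2.18 (SE 0.51) and 1.77 (SE 0.49) per the authors' deposited table. Postn, a matricellular protein of connective tissue, fell by 2.20 (SE 0.63, adjusted p = 0.00539) per the authors' deposited table. Of 13 proteoglycan genes 3 rose: the small leucine-rich proteins Fmod by 5.22 (SE 0.74) and Prelp by 3.67 (SE 0.55), and Cspg4 by 1.71 (SE 0.53) per the authors' deposited table.

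Of 30 genes of matrix enzymes and their inhibitors 5 rose and 3 fell, 26.7% called against 14.4% of all genes. The metalloproteases did not move together. Mmp2, gelatinase A, rose by 3.78 (SE 0.53, adjusted p = 6.64e-11) per the authors' deposited table. Mmp13, a collagenase, had normalized counts of 94.1 and 57.1 in the scrambled libraries and 0 reads in either BRD9 library, which makes it at least 40.9-fold lower when 3 reads over the 2 libraries are taken as the limit of a count of 0. Mmp9, gelatinase B, had 617 and 679 in the scrambled and 97.5 and 235 in the BRD9 libraries, and fell by 1.87 (SE 0.57, adjusted p = 0.00926) per the authors' deposited table. Mmp3, stromelysin, fell by 2.30 (SE 0.73, adjusted p = 0.0144) per the authors' deposited table. The procollagen protease Adamts2 and the inhibitor Timp3 rose by 2.58 (SE 0.51) and 1.66 (SE 0.56) per the authors' deposited table. Of 17 integrin genes 2 rose and 0 fell, 11.8% called against 14.4% of all genes. Both that rose encode alpha chains of collagen receptors. Itga11 had 20.3 and 35.6 in the scrambled and 662 and 2393 in the BRD9 libraries, and rose by 5.43 (SE 0.64, adjusted p = 8.81e-16) per the authors' deposited table. Itga1 had 6.77 and 9.36 in the scrambled and 88.0 and 76.7 in the BRD9 libraries.

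**Figure D3:**
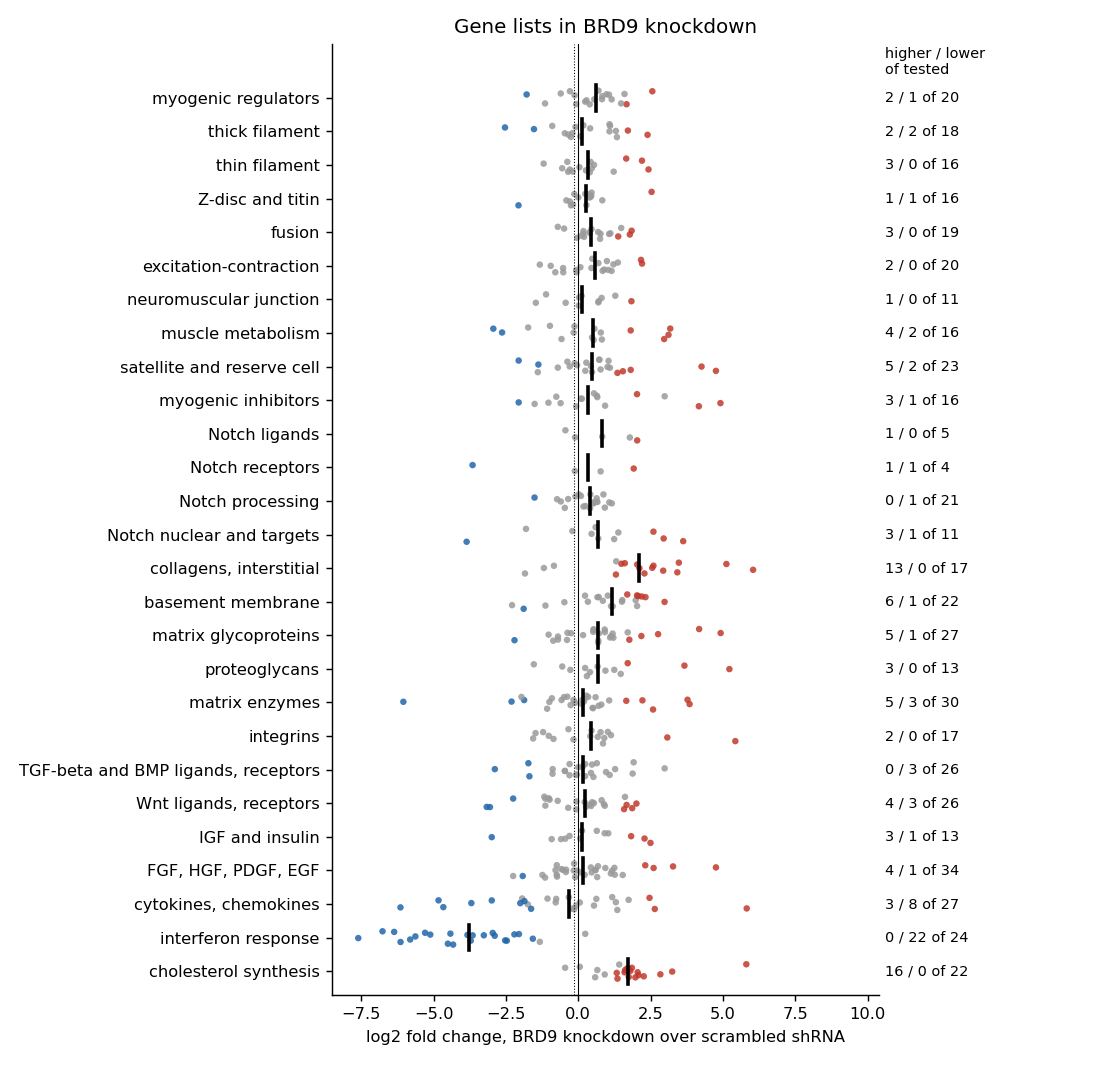
Log2 fold changes of BRD9 knockdown over scrambled shRNA for the tested members of 27 gene lists; each point is a gene (red higher, blue lower, grey not called), the black bar is the list's median and the dotted line the median of all genes tested (-0.15). Interstitial collagens (median 2.11) and cholesterol synthesis (1.72) lie to the right, the interferon response (-3.77) to the left, and the muscle lists around 0.

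Signalling genes were called in both directions, 22 higher and 42 lower of 243 tested, with a median of -0.05. That is 26.3% called, against 14.4% of all genes, and 22 of the 42 lower calls come from the interferon list described last. Among TGF-beta and BMP ligands and receptors 11.5% were called, against 14.4% of all genes: 0 of 26 rose and 3 fell. These were the activin chains Inhba, at -2.88 (SE 0.58, adjusted p = 1.26e-05), and Inhbb, at -1.72 (SE 0.48, adjusted p = 0.00402), and the stress-induced ligand Gdf15, at -1.69 (SE 0.55, adjusted p = 0.0179) per the authors' deposited table. Ccn2, a target of TGF-beta and YAP, fell by 2.58 (SE 0.58, adjusted p = 0.000146) per the authors' deposited table. The BMP antagonist Chrd had normalized counts of 130 and 247 in the scrambled and 887 and 689 in the BRD9 libraries, and rose by 1.98 (SE 0.54, adjusted p = 0.00293) per the authors' deposited table. The inhibitory Smad6 rose by 1.80 (SE 0.58, adjusted p = 0.0165) per the authors' deposited table.

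Wnt ligands and receptors gave 4 increases and 3 decreases among 26 tested, 26.9% called against 14.4% of all genes. Wnt7b fell by 3.16 (SE 0.59, adjusted p = 1.61e-06) and Wnt6 by 2.25 (SE 0.50, adjusted p = 0.000128) per the authors' deposited table. Rspo3, which strengthens Wnt signals at the receptor, had normalized counts of 227 and 128 in the scrambled and 26.2 and 10.2 in the BRD9 libraries. Wnt9a was higher, with 269 and 372 in the scrambled and 875 and 1874 in the BRD9 libraries, and rose by 2.01 (SE 0.55, adjusted p = 0.00277) per the authors' deposited table. The other 3 increases were receptors, Fzd9 at 1.86 (SE 0.66), Fzd6 at 1.67 (SE 0.53) and Fzd4 at 1.58 (SE 0.56) per the authors' deposited table. Of 16 modulators and targets Dkk3 alone was called, 6.25% against 14.4% of all genes. Its normalized counts were 55.5 and 31.8 in the scrambled and 320 and 506 in the BRD9 libraries.

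Insulin-like growth factor genes included 3 increases and 1 decrease among 13, 30.8% called against 14.4% of all genes. Igf2, an imprinted autocrine growth factor of differentiating myoblasts, rose by 2.29 (SE 0.55, adjusted p = 0.000406) per the authors' deposited table; 63.1% of its words occur in another gene model, so its assignment is uncertain. Igfbp2, a secreted binding protein with an implied mean of 148621 in scrambled libraries, fell by 2.99 (SE 0.58, adjusted p = 6.82e-06) per the authors' deposited table, while Igfbp3 and Igfbp4 rose by 2.50 (SE 0.61) and 1.83 (SE 0.57). Among FGF, HGF, PDGF and EGF genes 4 of 34 rose and 1 fell, 14.7% called against 14.4% of all genes. The 4 that rose encode receptor tyrosine kinases. Beside Fgfr4, these were Erbb3, the neuregulin receptor, at 3.28 (SE 0.53, adjusted p = 1.64e-08), Pdgfrb, a receptor of mesenchymal cells, at 2.60 (SE 0.50, adjusted p = 4.77e-06), and Fgfr2 at 2.32 (SE 0.67, adjusted p = 0.00595) per the authors' deposited table. Nrg1, the ligand of Erbb3, had normalized counts of 879 and 467 in the scrambled and 119 and 215 in the BRD9 libraries, and fell by 1.92 (SE 0.57, adjusted p = 0.00709) per the authors' deposited table. Of 25 genes of early response and MAPK feedback 0 rose, and Atf3 and Ier3 fell by 2.92 (SE 0.53) and 1.60 (SE 0.51) per the authors' deposited table. That is 8% called, against 14.4% of all genes.

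Hedgehog genes were called for 23.1% of 13 tested and retinoic acid genes for 18.8% of 16, against 14.4% of all genes. Gli2, a transcription factor of the Hedgehog pathway, had normalized counts of 20.3 and 10.3 in the scrambled and 124 and 133 in the BRD9 libraries, and rose by 2.85 (SE 0.67, adjusted p = 0.000336) per the authors' deposited table. Hhip, which binds Hedgehog ligands, fell by 2.05 (SE 0.69, adjusted p = 0.025) per the authors' deposited table. Of 16 retinoic acid genes 3 rose. Crabp1, a cytosolic retinoic acid binding protein, had 1.35 and 1.87 in the scrambled and 49.9 and 97.2 in the BRD9 libraries, and Rarb, a receptor that is also a target, had 13.5 and 3.74 against 121 and 56.2.

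The largest fall of any signalling list was in interferon response genes, of which 22 of 24 fell and 0 rose, with a median log2 fold change of -3.77, against 9.33% of all genes lower. Under the centred and scaled Wald score 15 of them were lower and 0 higher. Usp18, the protease that removes Isg15 from proteins, fell by 7.60 (SE 0.61, adjusted p = 2.38e-33) per the authors' deposited table, its implied group means being 10522 (scrambled) and 54.2. (BRD9) Ifi44, Ifit3 and the transcription factor Irf7 fell by 6.76 (SE 0.57), 6.36 (SE 0.51) and 6.14 (SE 0.54) per the authors' deposited table, Ifit3 sharing 61.8% of its words with other genes. Among 27 cytokine and chemokine genes 8 fell and 3 rose, 40.7% called against 14.4% of all genes. Ccl8 had normalized counts of 1169 and 1217 in the scrambled and 11.9 and 15.3 in the BRD9 libraries, and Cxcl10 and Ccl5 fell by 4.83 (SE 0.56) and 4.66 (SE 0.55) per the authors' deposited table. The chemokines that rose were Cxcl12, at 2.46 (SE 0.48), Cx3cl1, at 2.64 (SE 0.53), and Cxcl14, with 0 reads in both scrambled libraries and 19.0 and 81.8 in the BRD9 libraries, at least 42.8-fold higher. In BAF250A knockdown, set against the same scrambled libraries, the list medians were -5.32 for interferon response genes and 0.30 for cytokines and chemokines.

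The windows of Isg15 and Ifit3 are shown because they carry 2 copies of the letters GAAA with any 2 bases between them, the core of the interferon-stimulated response element. This pattern was found on either strand in 10 of 19 interferon members with a RefSeq window of 300 bases (GRCm38.p6), against 3.44% of all 32851 windows and 3.99% of 27025 genes. A match describes the letters and is no evidence of binding. Isg15, the ubiquitin-like product of the pathway, chosen for this display after its values were seen (window chr4:156200769-156201068, minus strand), fell by 5.63 (SE 0.53) per the authors' deposited table and has 3 overlapping matches. The window of Ifit3 (chr19:34583279-34583578, plus strand) has 2 matches, read as TTTC, 2 bases and TTTC on this strand. Capitals mark the matches.
Isg15: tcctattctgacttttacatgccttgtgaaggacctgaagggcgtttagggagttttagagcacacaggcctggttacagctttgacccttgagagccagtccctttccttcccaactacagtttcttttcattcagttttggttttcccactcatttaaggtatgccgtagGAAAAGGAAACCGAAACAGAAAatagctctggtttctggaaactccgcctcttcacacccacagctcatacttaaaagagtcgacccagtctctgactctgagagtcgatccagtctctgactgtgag
Ifit3: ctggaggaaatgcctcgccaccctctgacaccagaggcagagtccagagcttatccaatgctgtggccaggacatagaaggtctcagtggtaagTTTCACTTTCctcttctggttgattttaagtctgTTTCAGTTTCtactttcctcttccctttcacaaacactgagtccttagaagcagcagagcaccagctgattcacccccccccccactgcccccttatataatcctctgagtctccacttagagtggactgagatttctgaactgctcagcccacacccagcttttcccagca

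Many muscle genes differed between the BRD9 and BAF250A comparisons. The difference of the 2 log2 fold changes, divided by the root of the summed squared errors and adjusted by Benjamini-Hochberg, passed for 414 of 16311 genes (2.54%), 324 higher and 90 lower with BRD9. The shared scrambled libraries cancel in this difference, which makes the test conservative. On simulated data with the deposited standard errors it called 8.0% of log2 differences of 2 and 56.0% of those of 3. A gene that did not pass may therefore still differ. Of 132 muscle members tested for it 58 passed, and all 58 were higher with BRD9 than with BAF250A knockdown. Among the 6 myotube markers 5 passed, with the exception of Acta1, and their median was -3.77 with BAF250A against -0.12 with BRD9. Myh3 differed by 4.79 (adjusted p = 1.5e-09) and Mymk by 4.82 (adjusted p = 8.8e-08) in this z test, and Myog by 2.77 (adjusted p = 0.018). Pax7 and Heyl differed by 4.02 and 3.84 (adjusted p = 0.00029 and 5.4e-06), with 0.24 and -0.89 for BAF250A per the authors' deposited table, while Fgfr4 and Mdfi, at 4.36 and 4.91 there, did not pass. Of 125 matrix members 10 passed, 3 higher and 7 lower with BRD9, and the list medians of interstitial collagens were 2.11 and 2.71.

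Ribosomal protein genes and pseudogenes moved as classes, beside the group difference in low read numbers given at the start. Of 89 tested cytosolic ribosomal protein genes 63 were higher and 5 lower, with a median log2 fold change of 2.91. The 11 of them with little shared sequence had 4 higher, 0 lower and a median of 0.08, while 5.11% of all genes were higher. The 4 were Rps24, Rps19, Rpl35a and Rps15a, at 3.20, 3.68, 4.01 and 4.54 per the authors' deposited table. The class was picked by symbol, so these 11 include Rps19bp1, which does not encode a ribosomal protein, at -0.97. They also include the paralogue Rpl3l, at -1.41, and neither of these genes was called. Rps29 stood at 8.54 (SE 0.51) and Rps21 at 7.43 (SE 0.54) per the authors' deposited table, the retrotransposed copy Rpl32l at -7.84 (SE 0.53) and Rps27rt at -4.58 (SE 0.52). Of 489 tested pseudogenes 330 were lower and 1 higher, with a median of -3.57, and the 55 with little shared sequence had 25 lower and a median of -2.83. The largest fall of all genes tested was that of the processed gene copy Aldoart2, at -13.24 (SE 0.86) per the authors' deposited table. Aldoart2 is annotated as protein-coding with little shared sequence, so it is not among these pseudogenes. The copy Aldoart1 stood at -11.38 (SE 0.58) per the authors' deposited table. Long non-coding RNA genes had 180 lower and 3 higher of 934. In the BAF250A comparison, with the same controls, the medians were 3.52 for ribosomal protein genes and -3.75 for pseudogenes. The test of a difference between the comparisons, which misses many smaller differences, passed for 0 of 89 and 2 of 471. Whether the classes reflect the cells or the libraries was not tested. Without ribosomal protein genes and pseudogenes 1987 genes were called, and the share of calls that were higher went from 35.4% to 38.8%. Keeping only protein-coding genes that share little sequence and repeating the adjustment among them left 457 higher and 395 lower, a share of 53.6%. That restriction was chosen after seeing the data.

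**Figure D4:**
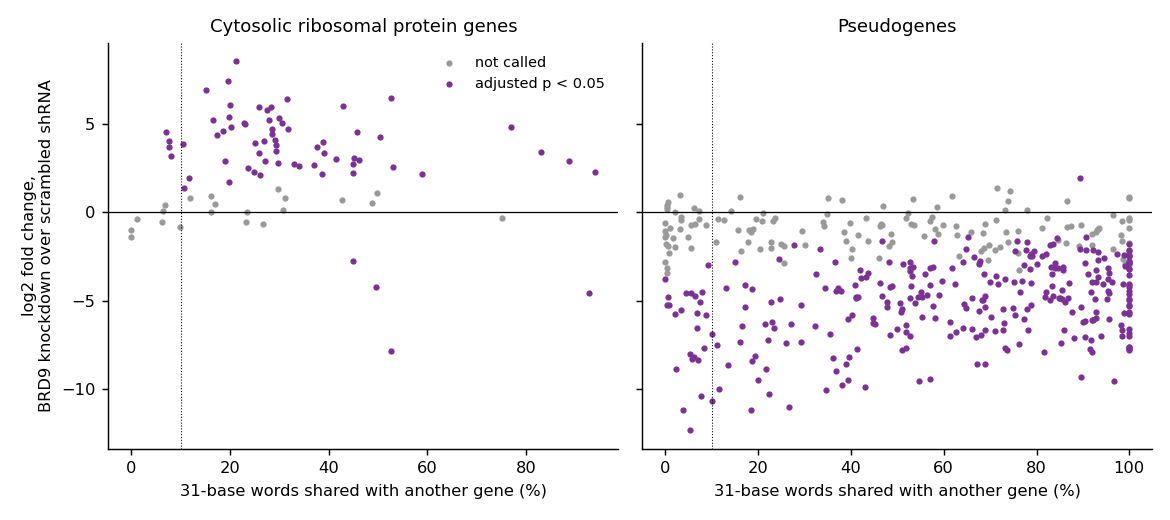
Log2 fold change of BRD9 knockdown over scrambled shRNA against the percentage of a gene's 31-base words that occur in another gene, for cytosolic ribosomal protein genes (left) and pseudogenes (right); the dotted line marks 10%. Ribosomal protein genes above the line lie mostly above 0 (class median 2.91), and pseudogenes lie mostly below 0 (class median -3.57) at every level of sharing.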

How the data were processed

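The authors sequenced total RNA of C2C12 cells, and the sequencing company BGI Americas made the libraries and the first analysis, per the labels' protocols. HISAT, StringTie, Bowtie, RSEM, DESeq2 and the mm10 build are named, per the submitters' processing notes, with versions and roles not given in the sources used here. For each comparison the authors deposited the mean normalized count over 4 libraries (a signal scaled by DESeq2 size factors), the log2 fold change, its standard error and Wald score, and the p-value and adjusted p-value. Per the file headers these are DESeq2 results. No values per library are in these columns, so the authors' test was used as deposited. Benjamini-Hochberg adjustment of the deposited p-values gave the deposited adjusted values within a relative gap of 0.00683.

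Implied group means were computed from the mean and the log2 fold change. Whole reads per library were recovered from mean, fold change and size factors, for means below 30 from the BRD9 table and up to 1000 jointly with the BAF250A table. The deposited log2 fold change and the log2 ratio of recovered group means differed by a median of 0.137 and by a median of 0.216 in size over 1309 genes. Single genes differ more: Ckmt2 stands at 3.18 in the one and 4.12 in the other, and Col11a1 at 6.04 and 6.70. Depth per library is known only as size factors, and reads are not independent molecules. The scripts were tested on simulated data. Gene identity came from RefSeq GRCm38.p6 by gene number (25271 rows matched, 1908 not), and shared 31-base words from GENCODE M21 transcripts (94.5% of genes tested).

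Members and gene lists were chosen with earlier results of these data known, so counts describe the lists and are no independent evidence. Named genes were Brd9 and 18 anchor genes, in each list up to 4 called members a direction by size (means of 100 or more first) or, where none was called, the 2 with the smallest p, the 10 largest increases and decreases of the whole table with a mean of 100 or more, and the 4 largest called ribosomal protein genes and pseudogenes a direction. Acta1, Tnnt3, Mylpf, Bicra, Vcam1 and Isg15 fall outside that rule and were chosen after their values were seen. Alternatives changed the threshold, the adjustment, the genes tested and the centring. BAF180 knockdown libraries were not analysed here, and some results, those of several named genes among them, are not reported here. Python 3.11.15, numpy 2.4.6, pandas 2.3.3, SciPy 1.17.1 and matplotlib 3.10.9 were used.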

Additional observations from a re-analysis of the deposited data

Results flagged for a closer look

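The log2 fold change of BRD9 knockdown minus that of BAF250A knockdown was tested for 16311 genes, and named genes whose difference passed (adjusted p below 0.05, z test, Benjamini-Hochberg) are given here as values. Among genes of differentiation and the sarcomere the difference was 4.79 for Myh3, 4.82 for Mymk, 4.66 for Ckm, 2.77 for Myog, 2.72 for Mymx, 7.45 for Myh8, 3.94 for Myh1, 3.16 for Myl4, 3.72 for Actc1, 3.41 for Neb, 3.09 for Tmod1 and 6.87 for Actn2. Among genes of the muscle membrane, synapse and mitochondria it was 3.47 for Tmem182, 2.95 for Dysf, 2.39 for Stac3, 6.0 for Scn4a, 3.72 for Dok7 and 6.57 for Cox8b. For Cdkn1c it was 3.21, on top of increases in both knockdowns.

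Progenitor and Notch genes that passed were Pax7 (4.02), Sox8 (3.58), Msc (7.36), Dll1 (2.69) and Heyl (3.84). Msc and Myl4 fell in both knockdowns and less with BRD9, as did Cox8b, Wnt7b, Cxcl9 and Ifit3. Col11a1, Itga11, Col8a2, Lama4 and Crabp1 rose in both knockdowns and less with BRD9. Of the 10 matrix genes that passed, 3 higher and 7 lower with BRD9, the named ones were Col11a1 (-3.98), Itga11 (-3.14), Postn (-2.87), Col8a2 (-2.79) and Lama4 (-2.33). Signalling genes went both ways, with Erbb3 at 4.75, Wnt7b at 5.62, Wnt9a at 2.52, Cxcl9 at 3.66 and Ifit3 at 3.89, and with Crabp1 at -6.0, Nrg1 at -3.32, Inhba at -3.13 and Wnt6 at -2.41. Outside these themes Stc1, a secreted glycoprotein hormone, stood at 6.53 and Map2, whose groups overlap with BRD9 knockdown, at 5.42.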

How the results depend on the processing

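No named gene called in the main comparison reversed direction under an alternative that kept it. The balance of calls did change, from mostly lower to mostly higher, in the smaller sets of protein-coding genes given below. The 2483 called genes (879 higher, 1604 lower) became 940 (269 and 671) with Bonferroni adjustment and 873 (287 and 586) with the Wald score centred on its median of -0.24 and divided by its robust SD of 1.58. They became 1525 (797 and 728) among protein-coding genes with no provisional symbol. Among protein-coding genes with little shared sequence, an alternative chosen after seeing the data, they became 852 (457 and 395). A mean of 100 or more left 1679 (730 and 949). The adjustment was repeated within each of these sets. The share of calls that were higher was 35.4%, but 43.3% after recentring, 52.3% without provisional symbols and 53.6% with little shared sequence. The 414 differences from BAF250A knockdown became 271 at an adjusted p below 0.01 and 123 with Bonferroni adjustment. Of 167 named genes called, 94 were lost with Bonferroni adjustment, 94 with the robust SD, 34 at an adjusted p below 0.01 and 5 after recentring (Brd9, Myf5, Myh6, Phlda3 and Sdc3). The cause of these changes was not tested beyond what the smaller sets of genes impose. No paired analysis was possible because the deposited columns hold no values per library, and the reads recovered for part of the genes cannot be tied to replicate A or B. Leaving out each replicate, a replicate block and the edgeR test need values per library for the whole table and were not run. The standard errors limit what could be called, and they reflect the spread between libraries as well as depth. The median SE was 0.54 for the 11698 genes with a mean of 100 or more.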

Other observations

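Cholesterol synthesis genes rose together: 16 of 22 were higher and 0 lower with BRD9 knockdown, with a median log2 fold change of 1.72 against -0.15 for all genes. In the authors' deposited table Fdps and Fdft1, enzymes of the pathway, stood at 3.25 and 2.26, and Insig1, which retains the SREBP complex in the endoplasmic reticulum, at 2.84. The letters TCAC, any base and CCAC, a sterol regulatory element, were found on either strand in 1 of 15 members with a promoter window (Hmgcs1), against 1.44% of 27025 genes. With BAF250A knockdown, measured against the same controls, the list median was 1.89. The test of a difference between the comparisons, which misses many smaller differences, passed for 0 of 22 genes.

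Of 16 stress genes 4 fell and 0 rose, 25% called against 14.4% of all genes, but 9 of the 16 had positive log2 fold changes. Their median was 0.12, against -0.15 for all genes. Ddit3, a transcription factor of the unfolded protein response, stood at -2.60 and Atf5 at -2.07 per the authors' deposited table. Among 15 p53 target genes 2 were higher and 2 lower, 26.7% called. Pmaip1, a pro-apoptotic BCL2-family protein, had normalized counts of 52.1 and 35.6 in the scrambled and 949 and 399 in the BRD9 libraries. Stc1 had 4.06 and 11.2 against 951 and 666, and Ky, a muscle protein needed for fibre maintenance, had 0 reads in both scrambled libraries and 181 and 239 in the BRD9 libraries, at least 178-fold higher.

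Markers of other lineages gave 5 increases and 6 decreases among 42 tested, 26.2% called against 14.4% of all genes. Summed implied means went from 1163 in scrambled to 350 in BRD9 libraries for 7 macrophage markers, from 287 to 108 for 6 endothelial markers (Emcn at 0) and from 120 to 245 for 5 epithelial markers. They went from 1274 to 1525 for 9 adipocyte markers (Adipoq at 0), from 23222 to 29253 for 10 osteoblast markers (Ibsp at 0), from 11404 to 7322 for 6 neuronal markers (Snap25 at 0) and from 199111 to 280258 for 9 smooth muscle markers. The part of such cells in the interferon, chemokine and matrix results was not tested. Single genes carry the first 3 sums. Of 5 macrophage markers tested 1 was higher (Itgam, 3.77) and 2 lower, and Cd14, with an implied mean of 976 in scrambled and 257 in BRD9 libraries, makes up most of the sum. Of 5 endothelial markers tested Kdr alone was called, with normalized counts of 241 and 136 in the scrambled and 2.38 and 3.83 in the BRD9 libraries, while Cdh5 and Vwf stood at 0.64 and 0.22 per the authors' deposited table. Of 3 epithelial markers tested 0 were called by the authors' DESeq2 test at an adjusted p below 0.05, and Krt14 had 112 and 91.7 in the scrambled and 21.4 and 421 in the BRD9 libraries, so 1 library sets that sum.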
